A study of Mus musculus with 9 samples.

Results

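The gp130 cytokine pathway was followed through 9 genes of the mouse retina: the ligand genes Lif, Clcf1 and Cntf, the receptor genes Cntfr, Lifr, Osmr and Il6st, the transcription factor gene Stat3 and its feedback inhibitor gene Socs3. The genes were chosen by name with earlier results of these data known, as were the gene lists below. Counts of called genes among them are therefore a description. All 9 were found among the 26683 genes of the count table. A filter on low counts kept 8 of the 9 for testing and left out Cntf. RNA from whole retinas was sequenced in bulk in 9 libraries, 3 in each of 3 groups, all collected at postnatal day 17. Gel retinas were from mice in which oxygen-induced retinopathy (OIR) had been produced and whose eyes were injected at postnatal day 15, into the vitreous, with a PCC1/PHCF hydrogel that carries the plant polyphenol procyanidin C1. PBS retinas came from OIR mice given phosphate-buffered saline in the same way on the same day. Normoxic retinas came from mice that breathed room air, and the labels do not say that these were injected. OIR is a model in which high oxygen halts the growth of retinal vessels in young mice and the return to room air leaves an underperfused retina in which abnormal vessels form. PBS and Normoxic retinas thus differed in oxygen history and in injection at once, and these cannot be told apart. No group received a hydrogel without procyanidin C1, so the carrier and the compound cannot be told apart either. The labels do not say whether replicates were separate animals, so every p-value measures the spread between these libraries, which may be technical.

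Cytokines of the interleukin 6 family signal through a shared receptor chain, gp130, which is encoded by Il6st. Each ligand forms a receptor complex that contains gp130, and Janus kinases bound to the receptors phosphorylate STAT3. STAT3 dimers enter the nucleus and switch on genes that include Socs3, whose product shuts the receptor complex down again. In the mouse retina LIF is made by a subset of Müller glia after photoreceptor injury and is part of a survival response of the tissue. STAT3 is activated by phosphorylation of the protein, which RNA sequencing does not measure.

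Osmr, Stat3 and Socs3 were the genes of the pathway whose RNA rose in PBS retinas relative to Normoxic retinas, and the sequences just upstream of their starts are shown for that reason. Each is the 250 bases before the start of the gene in RefSeq, build GRCm38.p6, on the strand of the gene. They lie at chr15:6874314-6874563 for Osmr, chr11:100939541-100939790 for Stat3 and chr11:117969367-117969616 for Socs3, all on the minus strand. Capitals mark matches to TTCNNNGAA, the palindrome that STAT dimers bind, which reads the same on both strands.
Osmr: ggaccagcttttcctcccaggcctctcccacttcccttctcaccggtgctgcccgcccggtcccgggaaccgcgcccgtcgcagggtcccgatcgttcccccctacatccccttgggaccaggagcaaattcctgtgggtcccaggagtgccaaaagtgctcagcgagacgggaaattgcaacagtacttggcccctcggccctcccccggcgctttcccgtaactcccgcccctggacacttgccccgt
Stat3: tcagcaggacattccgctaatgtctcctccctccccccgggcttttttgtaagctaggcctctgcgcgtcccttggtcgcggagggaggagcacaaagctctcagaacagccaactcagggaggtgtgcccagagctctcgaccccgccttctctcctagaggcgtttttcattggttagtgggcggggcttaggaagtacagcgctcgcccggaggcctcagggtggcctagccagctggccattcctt
Socs3: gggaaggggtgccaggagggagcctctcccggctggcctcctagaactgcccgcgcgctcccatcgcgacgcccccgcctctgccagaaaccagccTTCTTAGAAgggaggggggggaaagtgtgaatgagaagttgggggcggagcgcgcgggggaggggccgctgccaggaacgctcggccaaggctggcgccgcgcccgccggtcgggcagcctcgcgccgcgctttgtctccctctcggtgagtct
The Socs3 window held 1 match, TTCTTAGAA, at 154 to 146 bases before the start, and the Osmr and Stat3 windows held none. Windows were found for 8 of the 9 genes and not for Clcf1. Socs3 was the 1 gene of these 8 with a match, in 1 of their 14 windows, and 8.13% of all 27018 mouse genes and 7.02% of all 32841 windows of this length held one. The narrower form TTCCNGGAA, whose matches are all matches of TTCNNNGAA too, was in no window of these genes and in 0.913% of all windows. A match is a run of letters and not a measured binding site.

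The libraries held 29324142 to 35663470 counts, so 1 CPM, a level scaled to a library total of 1e+06 counts, stood for about 29.3 to 35.7 counts. The retinal origin was plain in every library, with the summed level of 8 rod photoreceptor genes at 46959 to 59040 CPM in Gel, 48422 to 65653 CPM in PBS and 51489 to 52621 CPM in Normoxic retinas. Gene length was correlated with each library's log2 difference from the mean of the other libraries of its group, so the values within a group are tied. Spearman's rho across genes was -0.49 for PBS 3, against 0.32 for PBS 1 and 0.41 for PBS 2. PBS 3 was also the lowest PBS library in CPM for all 9 genes of the pathway, though for Cntf PBS 1 and PBS 3 both held 3 counts. A link between gene length and these levels was not tested. PBS 1 was the highest PBS library for 5 of them, Lif, Osmr, Il6st, Stat3 and Socs3. The Gel libraries, tied in the same way, gave 0.32 for Gel 1, -0.30 for Gel 2 and -0.20 for Gel 3. Gel 1 was the highest Gel library in CPM for 7 of the 9 genes. Cntf was 1 of the 7 only through the smaller total of Gel 1, since each Gel library held 2 counts of it.

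In PBS retinas against Normoxic retinas, Socs3, Osmr and Stat3 RNA were higher, Lif RNA was separated from the Normoxic level in every library without passing the adjusted threshold, and the receptor genes Il6st and Lifr did not pass the test. With edgeR's quasi-likelihood test and Benjamini-Hochberg adjustment over 17362 genes, 3 of the 8 tested genes of the pathway were higher at an adjusted p under 0.05 and 0 were lower. Over all genes tested, 6.34% were called in this comparison, 4.31% higher and 2.03% lower. The median log2 fold change was 0.71 over the 8 genes and 0.01 over all genes. All 3 PBS libraries lay above all 3 Normoxic libraries for Lif, Osmr, Stat3 and Socs3, a separation that 14.9% of all genes showed, and all lay below them for Cntfr, which 14.1% of all genes showed. In whole retinas, more cells of a kind and more RNA per cell cannot be told apart.

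**Figure D1:**
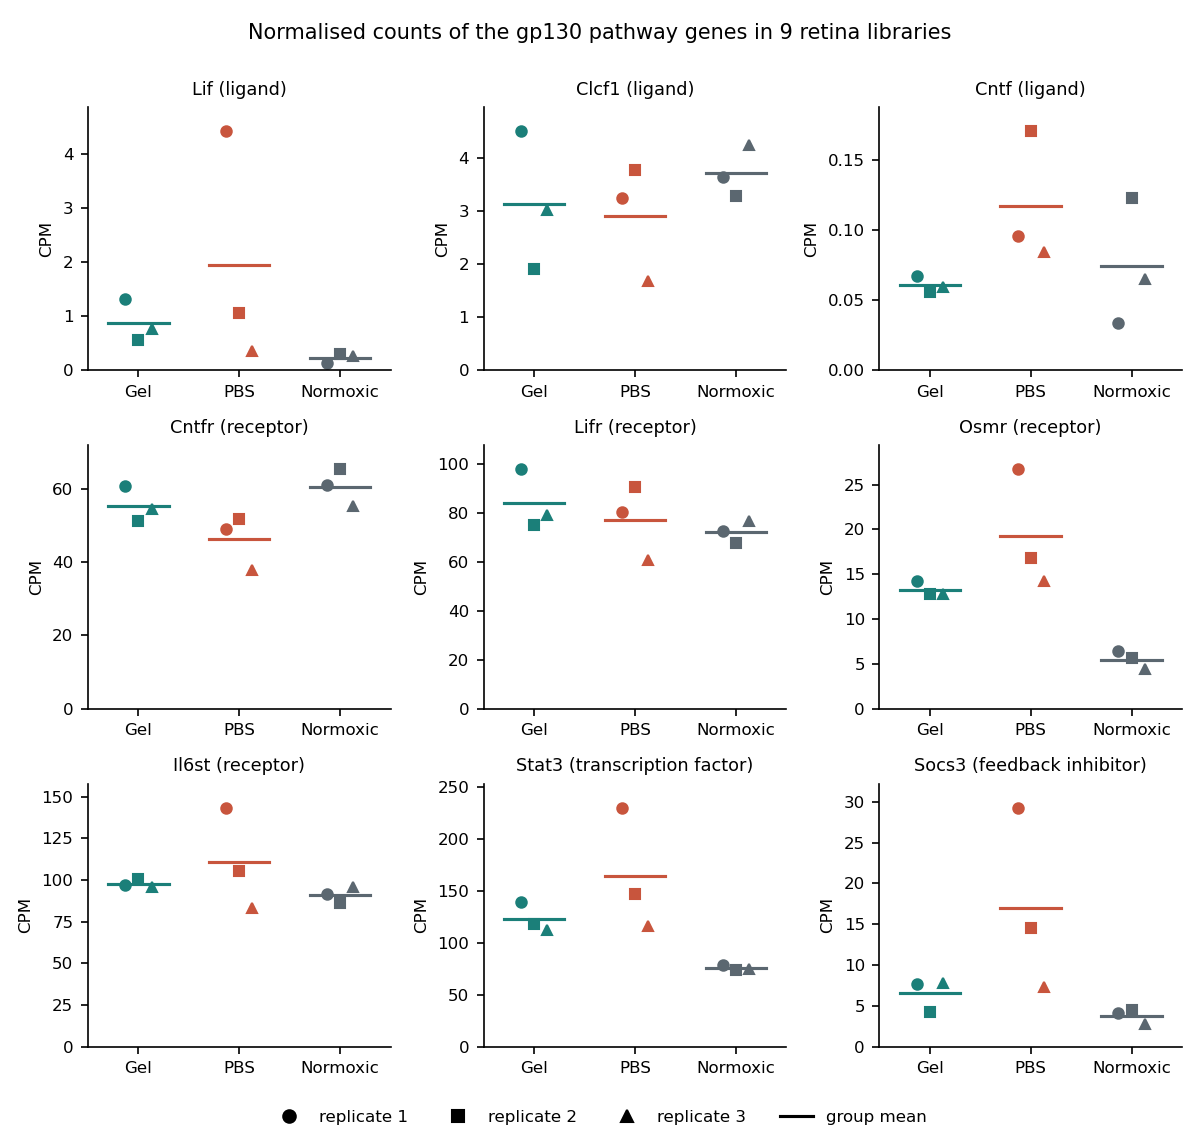
Level of each of the 9 genes in every library, in CPM on a linear axis that starts at 0. Each panel is 1 gene, points are libraries in the groups Gel, PBS and Normoxic, and bars are group means. PBS 1 is the highest point of all 9 libraries for Lif, Osmr, Il6st, Stat3 and Socs3, while the 3 Normoxic points for Stat3 lie close together between 73.9 and 78.4 CPM.

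Among the ligands, Lif (Entrez gene 16878) encodes leukemia inhibitory factor, the cytokine that joins the LIF receptor to gp130. Its level was 1.31, 0.56 and 0.77 CPM in Gel retinas, 4.43, 1.06 and 0.37 CPM in PBS retinas and 0.14, 0.31 and 0.26 CPM in Normoxic retinas, in the order of replicates 1 to 3. The PBS libraries differed 12.1-fold among themselves, with PBS 1 far above the other two, and both OIR groups lay above the Normoxic range. These levels rest on few reads, 85 counts in all in Gel, 183 in PBS and 22 in Normoxic libraries, so that Lif passed the filter through the OIR libraries. PBS 1 alone held 139 counts. The separation of PBS from Normoxic libraries rests on 13 counts in PBS 3 against 10 in Normoxic 2. PBS retinas were 3.02 ± 0.83 higher than Normoxic retinas on the log2 scale (SE, n = 3 each; 8.10-fold, 95% confidence interval 2.29 to 28.6), with an edgeR adjusted p of 0.0564. Without PBS 1 the difference was 1.55 and the edgeR adjusted p was 0.168. The call was made without PBS 2 (edgeR adjusted p of 0.0488) or without PBS 3 (edgeR adjusted p of 0.00597), with no filter on low counts (edgeR adjusted p of 0.0115), with the length trend removed (edgeR adjusted p of 0.0348) and by DESeq2 (adjusted p of 0.0018).

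Clcf1 (Entrez gene 56708) encodes cardiotrophin-like cytokine factor, a ligand of the receptor for ciliary neurotrophic factor. It had 4.51, 1.91 and 3.03 CPM in Gel, 3.25, 3.78 and 1.69 CPM in PBS and 3.65, 3.29 and 4.25 CPM in Normoxic retinas. The 3 groups overlapped, and the log2 fold changes were -0.36 ± 0.34 between PBS and Normoxic (edgeR adjusted p of 0.558) and 0.12 ± 0.34 between Gel and PBS (edgeR adjusted p of 0.987). Cntf, ciliary neurotrophic factor, long used as a photoreceptor survival factor in rodents, was barely counted: 6 counts in Gel, 11 in PBS and 7 in Normoxic libraries, at most 5 in any library. With no filter, the PBS against Normoxic log2 fold change of Cntf was 0.61 ± 0.97 with an edgeR adjusted p of 0.789, and a difference was not detectable at this depth.

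Among the receptors, Osmr (Entrez gene 18414), the chain that pairs with gp130 to bind oncostatin M, was the clearest. Its level was 14.2, 12.8 and 12.8 CPM in Gel retinas, 26.7, 16.8 and 14.3 CPM in PBS retinas and 6.45, 5.60 and 4.38 CPM in Normoxic retinas. Both OIR groups lay above the Normoxic libraries with no overlap. The Gel libraries lay close together below all PBS libraries, though Gel 1 (14.2 CPM) and PBS 3 (14.3 CPM) were almost level. PBS retinas were 1.82 ± 0.23 higher than Normoxic retinas on the log2 scale (3.53-fold, 95% confidence interval 2.50 to 4.99, edgeR adjusted p of 0.0013). The call was made under each of 19 alternatives, with an adjusted p of at most 0.0105.

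Il6st (Entrez gene 16195), which encodes gp130, had 96.9, 101 and 95.9 CPM in Gel, 143, 106 and 83.3 CPM in PBS and 91.5, 86.0 and 95.9 CPM in Normoxic retinas. The PBS libraries enclosed the range of both other groups, and PBS against Normoxic gave a log2 fold change of 0.29 ± 0.16 (edgeR adjusted p of 0.326), or 0.06 without PBS 1. Lifr (Entrez gene 16880), the LIF receptor chain, had 97.6, 74.7 and 78.9 CPM in Gel, 80.1, 90.3 and 60.8 CPM in PBS and 72.4, 67.4 and 76.6 CPM in Normoxic retinas, with a log2 fold change of 0.10 ± 0.14 between PBS and Normoxic (edgeR adjusted p of 0.709). Cntfr (Entrez gene 12804) encodes the anchored chain that gives CNTF and CLCF1 their specificity. It had 60.6, 51.1 and 54.4 CPM in Gel, 49.0, 51.7 and 37.8 CPM in PBS and 60.9, 65.3 and 55.3 CPM in Normoxic retinas. Cntfr was the 1 gene of the 9 with every PBS library under every Normoxic library. Its log2 fold change was -0.38 ± 0.12 (0.767-fold, 95% confidence interval 0.637 to 0.922), with an edgeR adjusted p of 0.0934 and a DESeq2 adjusted p of 0.0471.

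Stat3 (Entrez gene 20848) encodes the transcription factor that the gp130 receptors activate. It had 139, 118 and 112 CPM in Gel retinas, 230, 147 and 116 CPM in PBS retinas and 78.4, 73.9 and 74.6 CPM in Normoxic retinas. The OIR libraries all lay above the Normoxic range, and Gel and PBS overlapped. PBS retinas were 1.12 ± 0.20 higher than Normoxic retinas on the log2 scale (2.18-fold, 95% confidence interval 1.60 to 2.97, edgeR adjusted p of 0.00859). The difference was 0.80 without PBS 1 (edgeR adjusted p of 0.00863), and without Normoxic 2 it missed the threshold (1.11, edgeR adjusted p of 0.0506).

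Socs3 (Entrez gene 12702) encodes the inhibitor that binds gp130 and its kinases. It had 7.74, 4.26 and 7.80 CPM in Gel retinas, 29.3, 14.5 and 7.34 CPM in PBS retinas and 4.16, 4.49 and 2.84 CPM in Normoxic retinas. All PBS libraries were above the Normoxic range, PBS 3 lay inside the Gel range, and Gel 2 lay inside the Normoxic range. PBS retinas were 2.15 ± 0.43 higher than Normoxic retinas on the log2 scale (4.45-fold, 95% confidence interval 2.30 to 8.59, edgeR adjusted p of 0.0145). The difference was 1.51 without PBS 1 (edgeR adjusted p of 0.03), and the call was lost without Normoxic 1 (edgeR adjusted p of 0.063), Normoxic 2 (edgeR adjusted p of 0.0537) or Normoxic 3 (edgeR adjusted p of 0.0756).

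**Figure D2:**
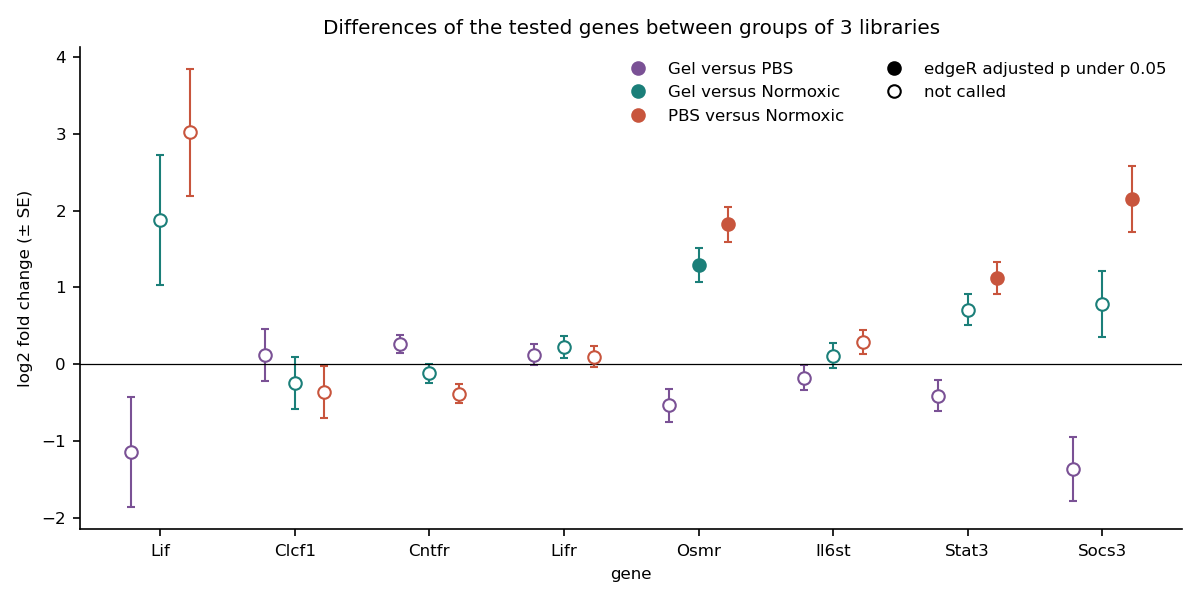
Log2 fold changes of the 8 tested genes in the 3 comparisons, with bars of 1 standard error from the edgeR fit and filled points for an adjusted p under 0.05. Filled points are Osmr, Stat3 and Socs3 in PBS over Normoxic and Osmr in Gel over Normoxic, and no point of Gel over PBS is filled.

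**Figure D3:**
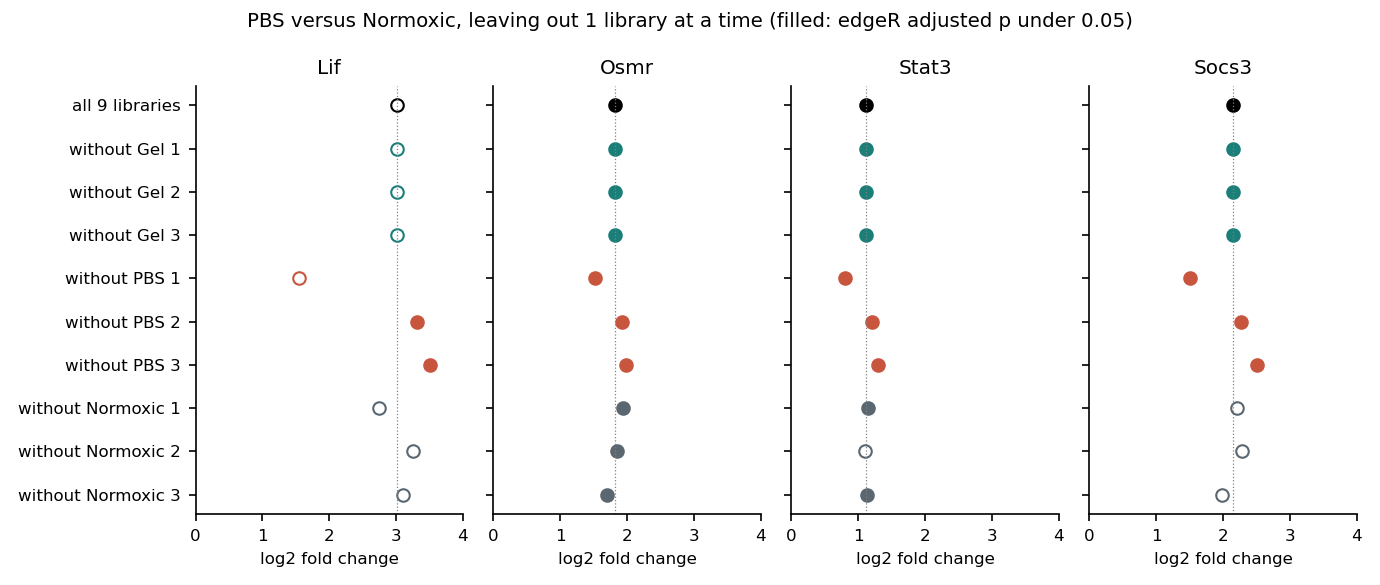
PBS over Normoxic log2 fold changes of Lif, Osmr, Stat3 and Socs3 from all 9 libraries and with each library left out in turn, filled where the edgeR adjusted p was under 0.05. Leaving out PBS 1 moves every gene toward 0, to 1.55 for Lif, 1.51 for Osmr, 0.80 for Stat3 and 1.51 for Socs3. All 10 Osmr points are filled.

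Markers of several cell types moved with the same groups. Over all genes, 4.31% were called higher and 2.03% lower in PBS than in Normoxic retinas. The summed level of 5 astrocyte markers, 1 of which is Gfap, was 152 to 203 CPM in Gel, 295 to 461 CPM in PBS and 69.9 to 94.8 CPM in Normoxic retinas, and 3 of the 5 were higher in PBS than in Normoxic retinas. That of 10 microglia markers was 129 to 172 CPM in Gel, 173 to 265 CPM in PBS and 67.6 to 77.9 CPM in Normoxic retinas, with 7 of 10 higher in PBS. That of 6 pericyte markers was 200 to 262 CPM in Gel, 270 to 409 CPM in PBS and 123 to 146 CPM in Normoxic retinas, with 3 of 6 higher in PBS. The 9 Müller glia markers overlapped between groups in their sum, at 5494 to 7199 CPM in Gel, 5210 to 7052 CPM in PBS and 5698 to 6221 CPM in Normoxic retinas. Of the 9, 0 were called higher and 2 lower in PBS. Every PBS library lay above every Normoxic library for 3 of them, as for 14.9% of all genes. For 2 every PBS library lay below, as for 14.1% of all genes. The 9 endothelial markers overlapped between groups in their sum, at 329 to 350 CPM in Gel, 278 to 360 CPM in PBS and 281 to 331 CPM in Normoxic retinas, with 5 higher and 1 lower in PBS. Kdr held a large part of that sum and ran lower in PBS, at 129 to 155 CPM against 188 to 218 CPM in Normoxic retinas. The median log2 fold change of the 9 for PBS over Normoxic was 0.88, with 7 positive and 2 negative. The neutrophil markers found, 4 of 6, summed to at most 0.178 CPM in Gel, 0.478 CPM in PBS and 0.0327 CPM in Normoxic retinas. Without Gfap the 4 other astrocyte markers summed to 62.3, 79.8 and 82.0 CPM in Gel, 93.6, 89.4 and 97.6 CPM in PBS and 60.7, 67.3 and 49.8 CPM in Normoxic retinas, with PBS above both other groups and no PBS library standing out. The 5 fibroblast markers summed to 15.1 to 32.0 CPM in Gel, 28.4 to 35.5 CPM in PBS and 11.2 to 19.7 CPM in Normoxic retinas, and the 3 T cell markers found to 2.15 to 3.92 CPM in Gel, 2.49 to 4.28 CPM in PBS and 0.784 to 1.14 CPM in Normoxic retinas. The 6 pigment epithelium markers summed to 122, 166 and 113 CPM in Gel, 50.0, 54.1 and 199 CPM in PBS and 79, 42.6 and 25.2 CPM in Normoxic retinas. PBS 3 was the lowest PBS library in CPM for all 9 genes of the pathway, for Cntf at the same count as PBS 1. PBS 3 was the highest PBS library in the microglia, pericyte, Müller glia, endothelial and pigment epithelium sums, and PBS 1 was the lowest in each of these. The fibroblast sum ran the other way, with PBS 1 highest at 35.5 CPM and PBS 3 lowest at 28.4 CPM. In the astrocyte sum with Gfap, PBS 1 was the highest at 461 CPM. In the rod and T cell sums PBS 3 was the highest and PBS 2 the lowest. The part of these cell types in the levels of Osmr, Stat3, Socs3 and Lif was not tested.

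In Gel retinas against PBS retinas, no gene of the pathway passed the test. Socs3, Osmr, Stat3 and Lif had negative log2 fold changes, which were smaller or turned without PBS 1 and larger without PBS 3. The edgeR test called 0 of the 8, as it called 0% of all 17362 genes. Without adjustment, 961 genes had a p under 0.05, which is 5.54%. DESeq2 called 62 genes, edgeR without a filter 24 and limma-voom 0, and no gene of the pathway was among them. Socs3 gave -1.36 ± 0.41 on the log2 scale (0.389-fold, 95% confidence interval 0.206 to 0.732, edgeR adjusted p of 0.64), and -0.72 without PBS 1, or -1.71 without PBS 3 (edgeR adjusted p of 0.084). Osmr gave -0.53 ± 0.22 (0.692-fold, 95% confidence interval 0.498 to 0.961, edgeR adjusted p of 0.842), and -0.22 without PBS 1, or -0.69 without PBS 3. Osmr was the 1 gene of the 8 tested with every Gel library under every PBS library, a separation that 5.15% of all genes showed in that direction. It was narrow, with Gel 1 at 14.2 CPM and PBS 3 at 14.3 CPM.

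Stat3 gave -0.41 ± 0.20 between Gel and PBS (0.752-fold, 95% confidence interval 0.554 to 1.02, edgeR adjusted p of 0.939), and -0.09 without PBS 1, or -0.59 without PBS 3. Lif gave -1.14 ± 0.72 (0.454-fold, 95% confidence interval 0.151 to 1.36, edgeR adjusted p of 0.987), and without PBS 1 it turned to 0.33, while without PBS 3 it was -1.63. Il6st turned as well, with -0.17 from all libraries and 0.05 without PBS 1. Cntfr was on the other side, 0.27 ± 0.12 higher in Gel than in PBS, with an edgeR adjusted p of 0.906. The intervals of Stat3 and Lif include no difference, and those of Socs3 and Osmr cover 1 gene at a time, before the adjustment over all genes.

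In Gel retinas against Normoxic retinas, Osmr was higher and the other 7 tested genes did not pass the test. Thus 1 of 8 was higher and 0 were lower, against 1.12% higher and 0.288% lower among all genes, 1.41% in either direction. Lif, Osmr, Il6st and Stat3 had every Gel library above every Normoxic library, as 11.1% of all genes did, though for Il6st Gel 3 and Normoxic 3 both stood at about 96.0 CPM. This comparison shares its Gel libraries with the one against PBS and its Normoxic libraries with the one of PBS. Osmr was 1.29 ± 0.23 higher on the log2 scale (2.44-fold, 95% confidence interval 1.73 to 3.45, edgeR adjusted p of 0.0207). The Osmr call was lost, at a like difference of 1.16 to 1.41, without Normoxic 1 (edgeR adjusted p of 0.0721), Normoxic 2 (edgeR adjusted p of 0.1), Normoxic 3 (edgeR adjusted p of 0.103), Gel 2 (edgeR adjusted p of 0.0735) or Gel 3 (edgeR adjusted p of 0.063).

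Stat3 was 0.71 ± 0.20 above its Normoxic level in Gel retinas (1.64-fold, 95% confidence interval 1.20 to 2.23), with an edgeR adjusted p of 0.13. It passed the threshold with edgeR on the 6 Gel and Normoxic libraries alone (adjusted p of 0.00406), without PBS 1 (edgeR adjusted p of 0.0157), without PBS 3 (edgeR adjusted p of 0.0208), with no filter (edgeR adjusted p of 0.0442) and by DESeq2 (adjusted p of 0.031). Socs3 gave 0.79 ± 0.43 (1.73-fold, 95% confidence interval 0.897 to 3.33, edgeR adjusted p of 0.482) and Lif gave 1.88 ± 0.84 (3.67-fold, 95% confidence interval 1.01 to 13.3, edgeR adjusted p of 0.371).

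Levels of different genes were compared per length, in FPKM, fragments counted per kilobase of the gene and scaled to the library total. Stat3 was first and Il6st next in all 3 groups, at 26.7 ± 3.13 and 17.1 ± 0.437 FPKM in Gel, 35.7 ± 12.8 and 19.4 ± 5.32 FPKM in PBS and 16.4 ± 0.518 and 15.9 ± 0.871 FPKM in Normoxic retinas (SD, n = 3 each). The ranges of Stat3 and Il6st overlapped in Normoxic retinas but not in Gel or PBS retinas. Cntfr came next, at 12.2 ± 1.06 FPKM in Gel, 10.2 ± 1.62 FPKM in PBS and 13.3 ± 1.10 FPKM in Normoxic retinas, followed by Lifr at 7.79 ± 1.13, 7.17 ± 1.39 and 6.71 ± 0.431 FPKM in the same groups.

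The low end of the order differed between groups. In Normoxic retinas Clcf1 (1.97 ± 0.255 FPKM) stood above Socs3 (1.4 ± 0.319 FPKM) and Osmr (1.01 ± 0.192 FPKM), and the last pair overlapped. In PBS retinas Socs3 (6.24 ± 4.09 FPKM) and Osmr (3.54 ± 1.21 FPKM) stood above Clcf1 (1.53 ± 0.575 FPKM), with Socs3 overlapping both Lifr and Osmr. In Gel retinas Osmr (2.45 ± 0.148 FPKM), Socs3 (2.42 ± 0.742 FPKM) and Clcf1 (1.66 ± 0.690 FPKM) overlapped in that order. Lif averaged 0.158 ± 0.0695 FPKM in Gel, 0.350 ± 0.390 FPKM in PBS and 0.0421 FPKM in Normoxic retinas, where Cntf, at 0.0615 FPKM, overlapped it.

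**Figure D4:**
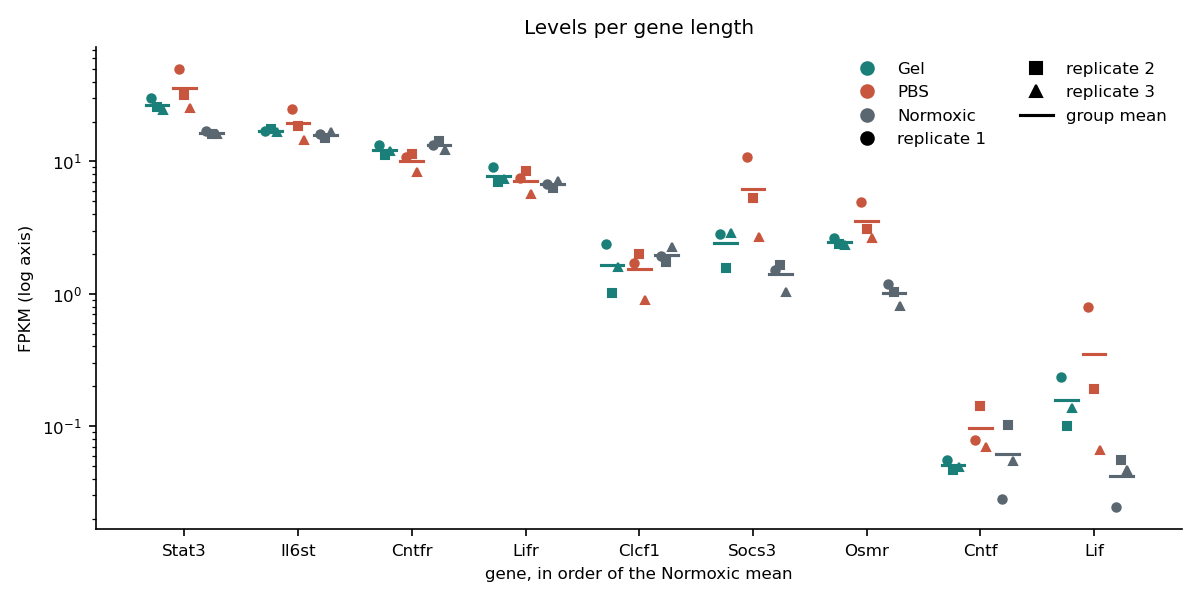
Level per length of the 9 genes in FPKM on a log axis, with each library as a point and group means as bars. Stat3 and Il6st lie at the top in every group, and Lif and Cntf lie under 1 FPKM in every library.

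Ratios within a library set the genes against each other. Osmr made up 0.154, 0.134 and 0.140 of the Il6st level per length in Gel, 0.196, 0.167 and 0.180 in PBS and 0.0742, 0.0686 and 0.0481 in Normoxic retinas. The 3 groups did not overlap in this ratio, though Gel 1 (0.154) and PBS 2 (0.167) stood close. Osmr per Lifr was 0.288, 0.340 and 0.321 in Gel, 0.660, 0.368 and 0.464 in PBS and 0.176, 0.165 and 0.113 in Normoxic retinas. Again the groups did not overlap, with Gel 2 (0.340) and PBS 2 (0.368) close. Socs3 per Stat3 was 0.0936, 0.0610 and 0.117 in Gel, 0.215, 0.167 and 0.107 in PBS and 0.0894, 0.102 and 0.0641 in Normoxic retinas, where Gel and Normoxic libraries overlapped and PBS 3 fell among the Gel values. Osmr itself separated the groups in CPM, and how often ratios of other genes do so was not tested. The ratios use the same libraries as the tests above and are given as a description.

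The other ligands and receptors of the family were low or did not pass the test. Over all genes, 6.34% were called for PBS over Normoxic, 0% for Gel over PBS and 1.41% for Gel over Normoxic. Of 8 further ligand genes, 6 had a row and 4 could be tested, of which 0 were called in any of the 3 comparisons, with median log2 fold changes of 0.27 for PBS over Normoxic, -0.33 for Gel over PBS and -0.00 for Gel over Normoxic. Il11, interleukin 11, averaged 0.279 ± 0.0997 CPM in Gel, 0.343 ± 0.146 CPM in PBS and 0.281 ± 0.158 CPM in Normoxic retinas. Osm, the oncostatin M ligand of Osmr, had 12 counts in all 9 libraries, 2 in Gel, 5 in PBS and 5 in Normoxic retinas. Il27 had 15 counts, 1 in Gel, 11 in PBS and 3 in Normoxic retinas. Il6 and Ctf2 were not analysed here.

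Of 4 further receptor genes, 2 could be tested and 0 were called in any comparison. Both were higher at an unadjusted p under 0.05 for PBS over Normoxic, where 21.4% of all genes had such a p in either direction. Their median log2 fold change was 0.85 for PBS over Normoxic, 0.14 for Gel over PBS and 0.99 for Gel over Normoxic. The other tested gene beside Il6ra was Il11ra1, named after its values were seen. It averaged 30.9 CPM in Gel, 34.1 CPM in PBS and 28.3 CPM in Normoxic retinas. Il6ra, the interleukin 6 receptor chain, had 0.61, 1.04 and 0.80 CPM in Gel, 1.18, 0.24 and 0.42 CPM in PBS and 0.27, 0.22 and 0.20 CPM in Normoxic retinas. Every Gel library was above every Normoxic library, and PBS 2 lay inside the Normoxic range. The Normoxic libraries held 8, 7 and 6 counts of Il6ra, so that Il6ra passed the filter through the OIR libraries. The Gel over Normoxic log2 fold change was 1.84 ± 0.59 with an edgeR adjusted p of 0.175, and 0.0427 when the 6 libraries were fitted alone by edgeR. That of PBS over Normoxic was 1.43 ± 0.60 with an edgeR adjusted p of 0.196. Il11ra2 had 16 counts in all.

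Of 10 further genes of Janus kinases and STAT factors, 9 were tested. In PBS against Normoxic retinas 3 were higher and 0 lower, against 4.31% higher and 2.03% lower over all genes. Jak3 and Stat6 were among the 3. The median log2 fold change of the 9 was 0.20. Jak3, a kinase of lymphocyte cytokine receptors, averaged 7.06 ± 1.12 CPM in Gel, 11.1 ± 5.42 CPM in PBS and 3.60 ± 0.793 CPM in Normoxic retinas, a PBS over Normoxic log2 fold change of 1.63 ± 0.32 (edgeR adjusted p of 0.0131). Stat6, the factor of interleukin 4 signalling, had a log2 fold change of 0.81 ± 0.17 (edgeR adjusted p of 0.0205). The calls of both genes were lost without Normoxic 1 or Normoxic 2, and that of Stat6 also without PBS 1, with edgeR adjusted p-values of 0.0643 to 0.112.

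Jak1 and Jak2, the kinases bound to gp130, did not pass the test in any comparison. Jak1 averaged 167 CPM in Gel, 157 CPM in PBS and 151 CPM in Normoxic retinas, and Jak2 40.6 CPM in Gel, 38.5 CPM in PBS and 33.5 CPM in Normoxic retinas. Of 15 further inhibitor genes of the pathway, all tested, 0 were called in any comparison by edgeR's adjusted p, 2 had an unadjusted p under 0.05 for PBS over Normoxic, where 21.4% of all genes did, and the median log2 fold change was 0.04 there, -0.01 for Gel over PBS and 0.01 for Gel over Normoxic.

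Genes known to respond to STAT3 were followed next, and several of them also mark reactive glia and acute inflammation. Of the 25 listed, 24 had a row and 20 were tested. This list too was chosen with earlier results of these data known, so its counts of called genes are a description. In PBS against Normoxic retinas 11 were higher and 0 lower, against 4.31% higher and 2.03% lower over all genes, with a median log2 fold change of 1.00. Of the 11, 6 were called under every alternative. The call was lost without Normoxic 1 for Cebpb, Icam1, Irf1 and Ccnd1, without Normoxic 2 for Icam1 and Irf1, without Normoxic 3 for Cebpb and without PBS 1 for Cebpb and Irf1, and with limma-voom for Bcl3. Cebpb also lost it with only the 6 libraries compared (edgeR adjusted p of 0.0624) and with the length trend removed (edgeR adjusted p of 0.0502). Gfap, the intermediate filament of astrocytes and of reactive Müller glia, had 89.2, 123 and 105 CPM in Gel, 367, 206 and 223 CPM in PBS and 17.5, 27.5 and 20.1 CPM in Normoxic retinas. The 3 groups did not overlap, and the PBS over Normoxic log2 fold change was 3.62 ± 0.26 (edgeR adjusted p of 0.000132). Serpina3n, a secreted protease inhibitor of a family with close copies among which reads can be split, had a log2 fold change of 4.85 ± 0.41 (edgeR adjusted p of 0.000202), or 4.20 without PBS 1. A2m, a plasma protease inhibitor, had 3.78 ± 0.38 (edgeR adjusted p of 0.00051). Cebpd, a transcription factor of the acute phase, had 3.36 ± 0.34 (edgeR adjusted p of 0.000518), or 2.75 without PBS 1. Timp1, an inhibitor of metalloproteinases, had 3.10 ± 0.42 (edgeR adjusted p of 0.00217).

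In Gel against PBS retinas 0 of the 20 were called by edgeR's adjusted p, and the median log2 fold change was -0.53. At an unadjusted p under 0.05, 10 were lower and 1 was higher, against 3.77% lower and 1.77% higher over all genes. Gfap gave -1.33 (edgeR adjusted p of 0.299), and it was called by DESeq2 (adjusted p of 0.000204) and by edgeR with no filter (adjusted p of 0.00645). Bcl3, a partner of NF-kappaB, had 1.99, 0.813 and 2.19 CPM in Gel, 16.5, 8.35 and 1.94 CPM in PBS and 0.443, 0.615 and 0.327 CPM in Normoxic retinas. PBS 3 lay inside the Gel range of Bcl3, whose Gel over PBS log2 fold change was -2.42 and reached an edgeR adjusted p of 0.0426 without PBS 3. Its PBS over Normoxic log2 fold change was 4.25 ± 0.71 (edgeR adjusted p of 0.00608), or 3.44 without PBS 1, and it was not called by limma-voom (adjusted p of 0.0822). The 1 gene on the other side, named after its values were seen, was Lcn2, lipocalin 2, with 36.1, 21.0 and 59.4 CPM in Gel, 21.1, 14.0 and 11.6 CPM in PBS and 2.52, 3.81 and 2.97 CPM in Normoxic retinas. The Gel and PBS libraries of Lcn2 overlapped at Gel 2 and PBS 1, and the log2 fold change was 1.31 ± 0.33 with an edgeR adjusted p of 0.576.

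In Gel against Normoxic retinas 6 of the 20 were higher and 1 was lower, against 1.12% higher and 0.288% lower over all genes, with a median log2 fold change of 0.53. Of these 7, 4 were called under every alternative. Icam1, an adhesion molecule for leukocytes, lost its call without Normoxic 1, Normoxic 2, Gel 2 or Gel 3, at edgeR adjusted p-values of 0.0801 to 0.139. Lcn2 had the smallest p, at a log2 fold change of 3.64 ± 0.37 (edgeR adjusted p of 0.00138), and Gfap followed at 2.29 ± 0.25 (edgeR adjusted p of 0.00187). Serpina3n gave 3.15 ± 0.39 (edgeR adjusted p of 0.00403), A2m 2.88 ± 0.37 (edgeR adjusted p of 0.00474) and Cebpd 2.09 ± 0.33 (edgeR adjusted p of 0.0126). The Cebpd call was lost without Normoxic 1, Normoxic 2, Normoxic 3 or Gel 3, at edgeR adjusted p-values of 0.05 to 0.0945. The gene that was lower, named after its values were seen, was Fos, the immediate early gene of neuronal activity, with 12.2, 23.9 and 16.7 CPM in Gel, 40.1, 18.6 and 18.5 CPM in PBS and 53.8, 63.2 and 50.6 CPM in Normoxic retinas. Its Gel over Normoxic log2 fold change was -1.65 ± 0.31 (edgeR adjusted p of 0.0304), and the call was lost without Normoxic 1, 2 or 3, Gel 1 or Gel 3, at edgeR adjusted p-values of 0.0719 to 0.14.

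**Figure D5:**
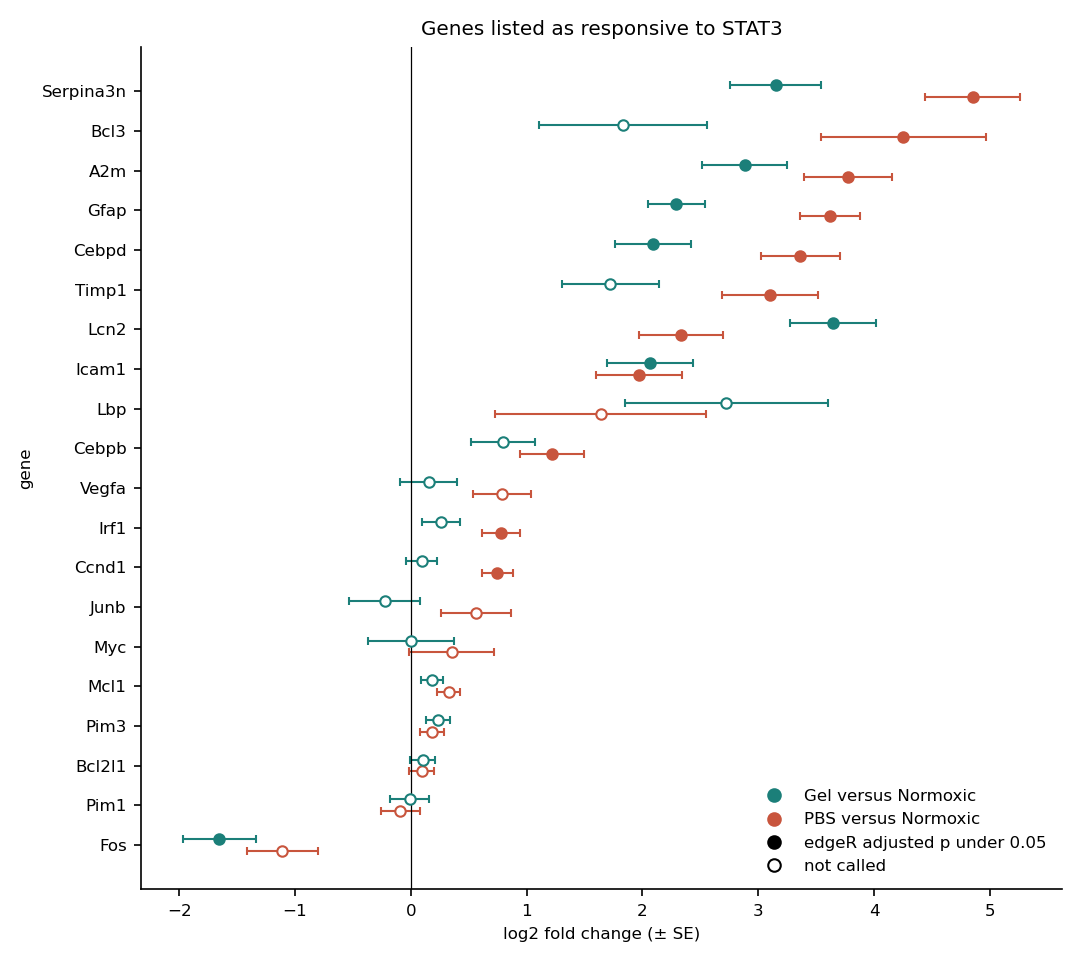
Log2 fold changes, with bars of 1 standard error, of the 20 tested genes of the STAT3-responsive list in Gel over Normoxic and PBS over Normoxic, filled where the edgeR adjusted p was under 0.05. In PBS over Normoxic 11 points are filled, all above 0. In Gel over Normoxic 7 are filled, with Lcn2 at 3.64 above its PBS point at 2.33 and Fos at -1.65 the 1 filled point under 0.

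Edn2, Fgf2 and Gfap are genes whose induction after photoreceptor injury is known to be reduced in mice that lack LIF. All 3 were higher in PBS than in Normoxic retinas, as were 4.31% of all genes. All 3 were also higher in Gel than in Normoxic retinas, as were 1.12% of all genes. Edn2, endothelin 2, a peptide of stressed photoreceptors, had 13.2, 4.46 and 8.69 CPM in Gel, 55.8, 29.1 and 9.17 CPM in PBS and 0.0682, 0.215 and 0.229 CPM in Normoxic retinas. PBS 3 lay inside the Gel range. The Normoxic libraries held 2, 7 and 7 counts of Edn2, so that Edn2 passed the filter through the OIR libraries. The Edn2 log2 fold change was 7.47 ± 0.82 for PBS over Normoxic (edgeR adjusted p of 0.000666), or 6.74 without PBS 1, and 5.64 ± 0.83 for Gel over Normoxic (edgeR adjusted p of 0.00903). Gel over PBS gave -1.83 ± 0.53 (edgeR adjusted p of 0.62), or -1.11 without PBS 1.

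Fgf2, a fibroblast growth factor, had 53.5, 40.9 and 49.3 CPM in Gel, 121, 68.6 and 53.1 CPM in PBS and 15.2, 14.1 and 12.6 CPM in Normoxic retinas, with Gel 1 and PBS 3 almost level. Its log2 fold change was 2.54 ± 0.26 for PBS over Normoxic (edgeR adjusted p of 0.00051), 1.79 ± 0.25 for Gel over Normoxic (edgeR adjusted p of 0.00785) and -0.75 for Gel over PBS (edgeR adjusted p of 0.65). No source used here states whether counting used strand, so reads of Fgf2 and of its antisense gene cannot be told apart. The Gel over Normoxic calls of Edn2 and Fgf2 were lost without Normoxic 1 or Normoxic 2, at edgeR adjusted p-values of 0.0538 to 0.0721. Edn2 was not called there by limma-voom (adjusted p of 0.212) or by limma on log2(FPKM + 1) (adjusted p of 0.0621).

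The genes nearest to each of Lif, Osmr, Stat3 and Socs3 in profile over the 9 libraries were sought among 13444 genes, by the root mean square difference of centred log2 CPM. Nearest to Osmr were H2-Q4 at 0.068, Slc15a3 at 0.12, Tnfrsf1a at 0.18, Adgrg6 at 0.19 and Antxr2 at 0.21, against a median of 0.80 over all genes. H2-Q4, a class I histocompatibility gene with near-identical copies among which reads can be split, had 13.5, 11.6 and 12.3 CPM in Gel, 23.6, 14.9 and 12.4 CPM in PBS and 5.69, 5.57 and 4.25 CPM in Normoxic retinas, nearly the Osmr values. Nearest to Stat3 were Frmd8 at 0.12, Nab2, Bag3 and Dclk3 at 0.14 and Wwtr1 at 0.15, against a median of 0.54.

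Nearest to Socs3 were Scube1 at 0.26, Flnc at 0.28, Muc2 at 0.34, Rfx2 at 0.37 and Cdsn at 0.40, against a median of 0.98. Scube1, which encodes a secreted and cell-surface protein, had 1.75, 0.785 and 1.93 CPM in Gel, 8.51, 3.51 and 1.55 CPM in PBS and 0.853, 0.831 and 0.980 CPM in Normoxic retinas. Nearest to Lif were Gipr at 0.50, Flnc and Muc2 at 0.51, Rfx2 at 0.52 and Nlrc5 at 0.53, so that Flnc, Muc2 and Rfx2 stood near both Lif and Socs3. These profiles share libraries, depth and the high values of PBS 1, and the distances are a description of the 9 libraries.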

How the data were processed

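Whole-retina RNA was sequenced in 9 libraries, 3 per group, grouped by their labels. The deposited count table holds the authors' whole-number counts per gene, and the deposited FPKM table holds the same counts divided by the library total and 1 length per gene. Bowtie2, RSEM 1.3.1, DESeq2 1.4.5 and GRCm39 are named, per the submitters' processing notes, and no source used here says how the counts became whole numbers. CPM were counts divided by the library total. Genes were kept by filterByExpr (minimum count 10), which left 17362 of 26683, and all 9 libraries were fitted together with edgeR 4.0.16 (TMM scaling, quasi-likelihood F test, Benjamini-Hochberg adjustment, calls at 0.05) in R 4.3.3. Errors of log2 fold changes are standard errors from that fit, and intervals are 95%. The fit was also run on counts simulated with its own dispersions. Those counts hold no length trend and no outlying library, so that run cannot show how the fit behaves with either. Genes close in profile had a mean of at least 1 CPM and used log2(CPM + 0.1). Alternatives were edgeR with RLE scaling, total counts, no filter, a replicate block, only the libraries compared or a loess length correction, DESeq2 1.42.0, limma-voom and limma 3.58.1 on log2(FPKM + 0.1) and log2(FPKM + 1), and each library left out. The 9 genes and all gene lists were chosen with earlier results of these data known. Named from each list were up to 5 called genes with the smallest p, a fixed group (Il6, Osm, Il11, Il6ra, Jak1, Jak2, Edn2, Fgf2, Gfap, Bcl3) and ligands or receptors under 30 counts, and 1 further gene of that group is not reported here. No pair of libraries within a group was a duplicate, with a chi-square per degree of freedom of at least 7.68, and pairs across groups were not checked in this way.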

Additional observations from a re-analysis of the deposited data

How the results depend on the processing

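Over 19 alternatives, 1208 of the gene values kept their direction and their side of the threshold, 49 lost the call, 17 gained it and 15 changed sign. Genes called for PBS over Normoxic numbered 1101, and 1936 with DESeq2, with 455 to 1184 when 1 library was left out, the fewest being 475 without Normoxic 1, 455 without Normoxic 2 and 494 without Normoxic 3. Of the pathway genes 3 were called there, 5 with DESeq2, and 1 to 4 when 1 library was left out. For Gel over PBS, 0 genes were called, against 24 with no filter, 62 with DESeq2, 3 with the length trend removed and 0 to 12 with 1 library left out. For Gel over Normoxic, 245 genes were called, against 389 with no filter, 845 with DESeq2, 643 with only the 6 libraries compared, 436 with the length trend removed and 47 to 735 with 1 library left out, and 1 pathway gene against 2 with no filter, 2 with DESeq2, 2 with only the 6 libraries compared, 0 with log2(FPKM + 1) and 0 to 2 with 1 library left out. Of the called genes 79.6% were higher for Gel over Normoxic, against 66.6% with DESeq2. A log2 fold change turned sign for PBS over Normoxic in Lifr (-0.0133 without PBS 2, up to 0.2216 without PBS 3), Il11 (-0.0954 without Normoxic 3 and -0.0853 without PBS 1, up to 0.5575 without Normoxic 2) and Jak1 (-0.011 without PBS 3, up to 0.1115 without PBS 1). For Gel over PBS it turned in Lif (0.3294 without PBS 1, down to -1.6273 without PBS 3), Clcf1 (-0.1342 without PBS 3, -0.2211 without Gel 1), Il6st (0.0543 without PBS 1, down to -0.3207 without PBS 3) and Il11 (0.0988 without PBS 1, down to -0.6371 without Gel 2). For Gel over Normoxic it turned in Clcf1 (0.0094 without Gel 2, down to -0.5852 without Gel 1) and Il11 (-0.0032 with total counts, -0.0205 with the length trend removed, -1e-04 with log2(FPKM + 1), -0.3801 without Normoxic 3, -0.339 without Gel 2, up to 0.2724 without Normoxic 2). None of these values passed the threshold, and the cause was not tested. With the replicate number as a block, 1050 genes were called for PBS over Normoxic, 0 for Gel over PBS and 227 for Gel over Normoxic, and the pathway genes called stayed at 3, 0 and 1. Replicate numbers are not shown to pair libraries: same-numbered libraries correlated at -0.23 to 0.38 in their deviations, 2 of the 9 pairs were above 0.1, and 4 of 9 libraries had their highest correlation with a library of their own number (PBS 1 with Gel 1, PBS 3 with Gel 3). Depth limits Cntf, Osm and Il27, with 24, 12 and 15 counts in all.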
